A study of Homo sapiens with 4 samples.

Results

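The last 5 Mb of the short arm of chromosome 5, which hold TERT in band 5p15, were taken from a list of ATAC-seq peaks of breast cancer cells. All listed summits on chromosome 5 at positions from 0 to 5 Mb of the hg19 genome were included. They were 4777 summits in 1292 regions, of 197823 regions in the whole list. A region is a stretch with more reads than the background, and a summit is a point of highest signal within it. A region can have several summits. The stretch was chosen by the density of its summits in this same list, so its density, heights and widths are descriptions and carry no test.

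The cells were T47D-MTVL, a line derived from the T47D breast cancer line with 1 stably integrated luciferase reporter driven by the MMTV promoter. They carried either shRNA against multiple linker histone H1 variants (multiH1sh, 2 samples) or a random shRNA (RDsh, 2 samples), and the study asked how losing H1 affects DNA accessibility. The sources used here do not give which H1 variants were lowered, whether the lines were clones, or whether the replicates were separate cultures. Only 1 list was available for the series, and its track line names 225sh and RDsh. Reading 225sh as the multiH1 knock-down is an assumption from that name. The sources used here give neither which of the samples entered the list nor whether the random shRNA served as the control in peak calling, so a pileup or fold below cannot be assigned to either group. With no value per sample, neither a spread between replicates nor a change against the random shRNA can be given for any region.

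Linker histone H1 binds where DNA enters and leaves the nucleosome and helps to fold chromatin into compact fibres. In ATAC-seq the Tn5 transposase inserts adapters where DNA is accessible, so reads pile up over promoters, enhancers and other exposed stretches. TERT encodes the catalytic subunit of telomerase, the enzyme that extends chromosome ends. The gene is silent in most somatic cells and active in most cancers, and it is transcribed towards the telomere.

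Only TERT could be placed on the list, at 1253 to 1295 kb of hg19, because the gene table used here (RefSeq, GRCh38.p14) is of another build. The other genes are therefore given by their order alone. All 26 genes looked up were found in the table, 1 of them under an older symbol. On the telomere side of TERT lie 16 of them, which include SDHA (a subunit of succinate dehydrogenase), AHRR (the repressor of the aryl hydrocarbon receptor), SLC9A3 (a sodium and proton exchanger) and TPPP (a tubulin-binding protein). BRD9 (a bromodomain subunit of a chromatin remodeller), TRIP13 (an ATPase of the spindle checkpoint) and SLC12A7 (a potassium and chloride cotransporter) are also on that side. The direct neighbours of TERT among the genes looked up are SLC6A18, an amino acid transporter family member, on the telomere side, and CLPTM1L, a membrane protein gene, on the centromere side. Farther towards the centromere follow SLC6A3 (the dopamine transporter), LPCAT1 (a phospholipid acyltransferase), NDUFS6 (a subunit of respiratory complex I) and the Iroquois homeobox genes IRX4, IRX2 and IRX1.

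The start of TERT lay inside a listed region, so its promoter is shown with those of both neighbours, which have no position on the list. Each is the RefSeq sequence of GRCh38.p14 on chromosome 5 from 250 bases before to 50 bases after the annotated start, 5′ to 3′ on the gene's own strand, minus for TERT and CLPTM1L and plus for SLC6A18. Capitals mark the GC box GGGCGG, searched on both strands and so also seen as CCGCCC, and the E-box CACGTG. The 2 motifs share no base in these 3 sequences.
TERT: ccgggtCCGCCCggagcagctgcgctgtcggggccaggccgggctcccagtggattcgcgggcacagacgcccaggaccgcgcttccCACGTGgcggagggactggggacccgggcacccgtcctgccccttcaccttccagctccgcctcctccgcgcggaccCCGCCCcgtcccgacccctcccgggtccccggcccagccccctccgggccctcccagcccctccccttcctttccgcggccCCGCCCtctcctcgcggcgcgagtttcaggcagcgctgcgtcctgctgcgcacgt
CLPTM1L: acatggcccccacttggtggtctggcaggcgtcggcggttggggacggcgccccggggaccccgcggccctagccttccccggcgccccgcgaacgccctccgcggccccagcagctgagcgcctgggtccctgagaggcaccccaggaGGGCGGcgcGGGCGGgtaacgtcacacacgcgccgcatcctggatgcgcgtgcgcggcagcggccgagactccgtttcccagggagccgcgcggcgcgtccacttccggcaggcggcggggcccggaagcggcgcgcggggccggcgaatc
SLC6A18: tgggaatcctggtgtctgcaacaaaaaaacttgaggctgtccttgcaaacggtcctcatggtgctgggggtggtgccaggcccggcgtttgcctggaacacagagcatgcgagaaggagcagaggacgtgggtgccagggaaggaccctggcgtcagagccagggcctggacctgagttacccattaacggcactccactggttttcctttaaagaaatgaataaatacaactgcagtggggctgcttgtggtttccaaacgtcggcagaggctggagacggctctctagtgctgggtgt

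In this window the promoter of TERT had a GC content of 77.3%, 36 CpG dinucleotides, 3 GC boxes and 1 E-box. Its sequence ends in cacgt, and a match reaching past the end was not counted. The promoter of CLPTM1L was alike in composition, at 78.0% and 46 CpG, with 2 GC boxes and no E-box. The promoter of SLC6A18 differed from both, at 56.0% and 10 CpG, with neither motif in this window. Among all 35116 promoters of the table, 45.0% held a GC box and 7.26% an E-box, and the median GC content was 58.7%. Of the 25 genes looked up that had a promoter in the table, 19 held a GC box and 4 an E-box, counting the first promoter where a gene had several. Their median GC content was 76.0%, and 22 of the 25 lay above the median of 62.3% over 22199 promoters of protein-coding genes. Of these coding promoters 56.3% held a GC box and 8.34% an E-box. The list holds well-known genes of the band, not all of them, and a motif match is a description of the letters and not of binding.

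Along the terminal 5 Mb of 5p, nearly all summits lay in the first 2 Mb. These 2 Mb, a limit set after the values were seen, held 4453 of the 4777 summits (93.2%) and 1043 of the 1292 regions (80.7%). Listed regions covered 43.4% of their length, against 2.13% of the stretch from 2 to 5 Mb. Per Mb there were 2227 (2226.5) summits in the first 2 Mb and 108 in the stretch from 2 to 5 Mb, a ratio of 20.6.

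Step by step, the first Mb from the telomere held 2110 summits, the second 2343, the third 196, the fourth 115 and the fifth 13. The share of each Mb inside listed regions was 41.2%, 45.5%, 3.82%, 2.31% and 0.269% in the same order. All 17 windows of 100 kb with 100 summits or more lay before 1900000. In windows of 10 kb, 11 of 200 had no summit in the first 2 Mb (5.50%), against 177 of 300 (59.0%) from 2 to 5 Mb.

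**Figure D1:**
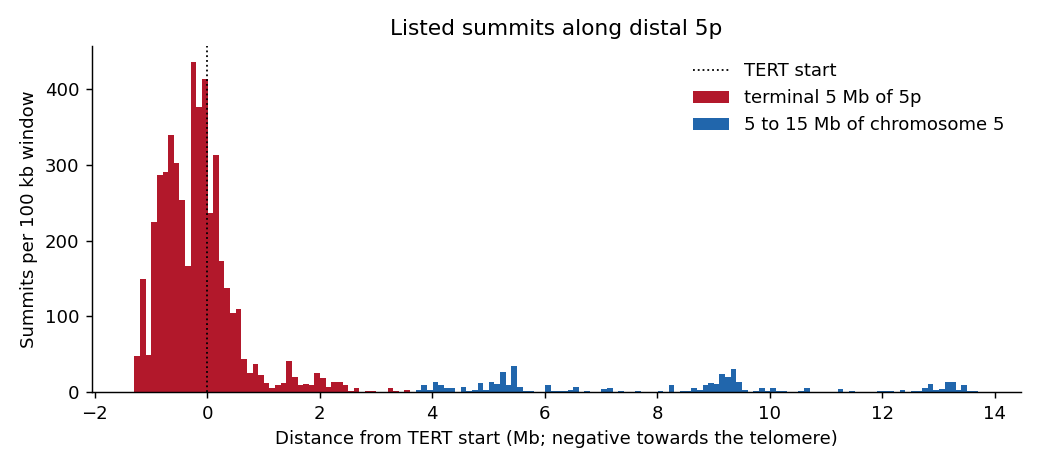
Summits in each window of 100 kb (bars) against the distance of the window's centre from the TERT start in Mb, negative towards the telomere, for the terminal 5 Mb of 5p and for the stretch from 5 to 15 Mb. The bars are high on both sides of TERT, with a highest value of 435, and fall away within the first Mb on the centromere side.

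The stretch from 5 to 15 Mb of the same arm gives the level beside it. The terminal 5 Mb had 955 summits per Mb, against 46.8 from 5 to 15 Mb, where 468 summits lay in 351 regions. The ratio was 20.4, or 7.36 with each region counted once. The part from 2 to 5 Mb, at 108 summits per Mb, was 2.31 times as dense as 5 to 15 Mb. The terminal 5 Mb made up 2.77% of the length of chromosome 5 up to its last region and held 28.0% of the chromosome's 17034 summits. At the 5 Mb limit itself signal was sparse. The last summit inside lay 121 kb before the limit with 10 reads, and the first outside lay 18.4 kb beyond it, also with 10 reads.

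Of the 5 densest windows of 100 kb, 3 adjoined each other at TERT and on its telomere side. The window from 1000001 to 1100000 had 435 summits, that from 1200001 to 1300000, which holds TERT, had 413, and that from 1100001 to 1200000 had 376. In these 3 adjoining windows 84.2%, 78.9% and 72.6% of the bases lay in listed regions, in the order given. The window from 600001 to 700000 followed with 339 summits, and that from 1400001 to 1500000, on the centromere side of TERT, with 313. The dense stretch was not even. The window from 900001 to 1000000 had 167 summits, and that from 200001 to 300000 had 49.

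Summits were also taller in the dense stretch. Height is given as the pileup, the number of reads over the summit, which was recovered from the authors' fold enrichment and p-value with 1 background of 2.01 reads for the whole list. This background did not vary from place to place, so the folds carry no correction for local background. The median pileup was 19 reads in the terminal 5 Mb of 5p, 14 from 5 to 15 Mb and 15 in the whole list, and the lowest listed pileup was 10 in each. In the terminal 5 Mb 49.7% of summits reached at least 20 reads (2372 summits, 95% Wilson interval 48.2 to 51.1%). The share was 20.1% from 5 to 15 Mb (16.7 to 24.0%), and the background over all 371521 summits was 26.5%. These intervals cover counting error only, since summits close together share reads and PCR copies could not be told from separate molecules without molecular identifiers.

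Within the terminal 5 Mb the height broadly followed the density, but not at each step. The share of 20 reads or more was 52.1% in the first 2 Mb, against 16.05% from 2 to 5 Mb. The second Mb had more summits than the first (2343 against 2110) but a lower share, 47.9% against 56.7%. The share peaked at 80.5% in the window from 700001 to 800000, whose median pileup was 36 reads. In the window with the most summits, from 1000001 to 1100000, it was 65.7%, and in the thinner window from 900001 to 1000000 it was 26.9%. Over the 35 windows of 100 kb with 10 summits or more, Spearman's rho between the number of summits and their median pileup was 0.93. These windows come from 1 list and share its depth and its lower limit of 10 reads, so rho is a description.

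**Figure D2:**
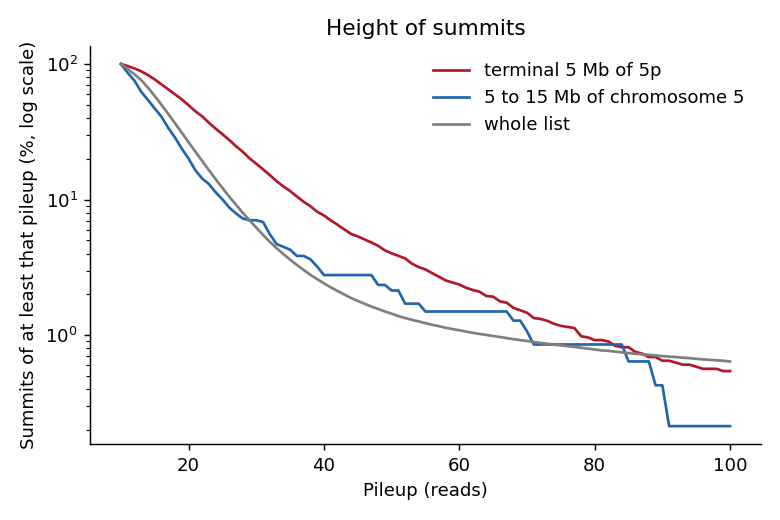
Share of summits (percent, log scale) with at least the pileup on the horizontal axis (reads), for the terminal 5 Mb of 5p, for 5 to 15 Mb of chromosome 5 and for the whole list. At 20 reads the curves stand at 49.7%, 20.1% and 26.5%, and near 100 reads that of the whole list lies above that of the terminal 5 Mb of 5p.

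Summits of 50 reads or more numbered 192 (4.02%, 3.50 to 4.61%), against a background of 1.44% in the whole list, and 189 of them lay in the first 2 Mb. The 192 summits came from 37 regions. The first Mb held 146 of them (6.92% of its summits), and the second Mb, which holds TERT, held 43 (1.84%). At 100 reads or more the terminal 5 Mb had 26 summits in 10 regions. That was 0.544% of its summits, below the background of 0.640% in the whole list. No summit there came near the highest values of the list, as 196 regions elsewhere had a higher −log10 q than the strongest region of 5p.

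The strongest of those 10 regions lay from 852631 to 859393, with 24 summits and a highest pileup of 194 reads (fold enrichment 64.8). Its neighbour from 840280 to 851502 reached 193 reads over 59 summits. The region from 415086 to 415945 also stood out, as it reached 191 reads but was only 860 bp wide and had 4 summits. Of the 10 strongest regions 3 lay within TERT, with highest pileups of 166, 149 and 108 reads, and 1 more lay from 1332989 to 1334391 with 139 reads, beyond the start of TERT. The other 3 were from 752736 to 762780 (148 reads), from 1191484 to 1194217 (106) and from 769332 to 789169 (100). All 10 lay in the first 2 Mb.

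Regions of 5p were wide and held many summits. The median width was 291 bp in the terminal 5 Mb, 168 bp from 5 to 15 Mb and 208 bp in the whole list. Other dense short-arm ends were as wide by this measure. Over their terminal 5 Mb the median was 294.5 bp in 4p, 308 bp in 7p and 306 bp in 16p. Regions of 1000 bp or more made up 17.3% (224 regions), against a background of 6.07%, and held 63.1% of the summits. In the ends of 4p, 7p and 16p regions of that width made up less, at 14.5%, 14.8% and 15.1%. Over 1 summit was found in 45.7% of the regions of 5p, against 28.2% in the whole list. That share was similar in the ends of 4p (44.8%), 7p (48.3%) and 16p (47.5%). On average a region had 3.70 summits in the terminal 5 Mb, 1.33 from 5 to 15 Mb and 1.88 in the whole list.

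The widest region, from 769332 to 789169, spanned 19838 bp and had 114 summits with at most 100 reads. Next came those from 681035 to 697294 (16260 bp, 88 summits) and from 668864 to 680898 (12035 bp, 75 summits), which are separated by only a short unlisted stretch. The region from 474965 to 486972 measured 12008 bp with 64 summits, and that from 840280 to 851502 measured 11223 bp with 59. These 5 were also the 5 with the most summits and held 8.37% of all summits of the terminal 5 Mb. In all, 6 of the 86 regions of 10 kb or more in the whole list lay in these 5 Mb. Inside a region, neighbouring summits were a median of 159 bp apart in the terminal 5 Mb, 162 bp from 5 to 15 Mb and 156 bp in the whole list, so this spacing was close to that elsewhere.

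**Figure D3:**
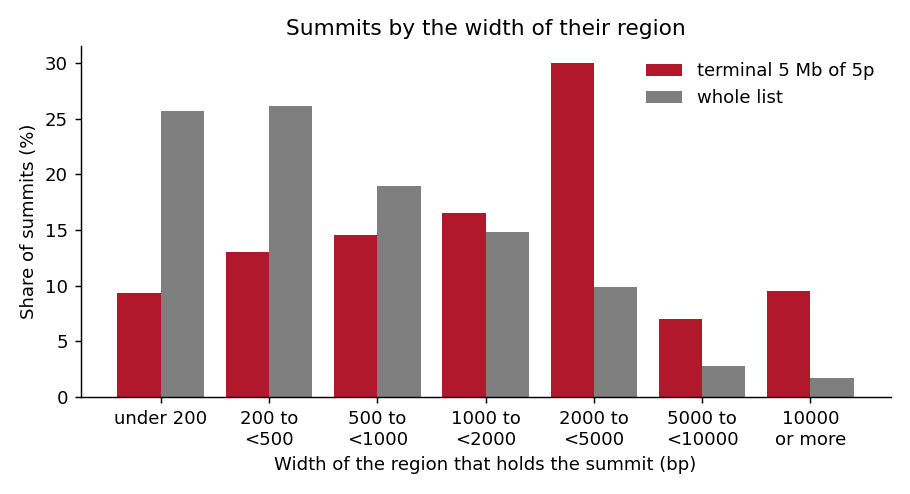
Share of summits (percent) by the width class of the region that holds them (bp), for the terminal 5 Mb of 5p (left bar of each pair) and the whole list (right bar). Regions of 2000 to under 5000 bp held 30.02% of the summits of 5p and 9.88% of those of the list, whereas regions under 200 bp held 9.36% and 25.7%.

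Heights were also set side by side within width classes. The highest pileup of a region had a median of 13 reads in 5p and 12 in the whole list for regions under 200 bp. For regions of 500 to under 1000 bp it was 22 against 21 reads, and for 2000 to under 5000 bp it was 39 against 34. Regions of 5000 to under 10000 bp had 44 reads in both. For the 6 regions of 10 kb or more in 5p it was 95.5 reads, against 75 over the 86 such regions of the list. Regions with a single summit reached 20 reads in 11.8% of 702 cases in 5p, against 8.44% in the whole list. This was not particular to 5p, as the share was 12.9% in the terminal 5 Mb of 4p, 13.3% in 7p and 12.0% in 16p.

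TERT lay in the middle of the dense stretch. Its interval of 42 kb held 141 summits, or 33.6 per 10 kb, against 9.35 per 10 kb in the rest of the terminal 5 Mb and 22.02 in the rest of the first 2 Mb. Listed regions covered 73.4% of the interval, against 42.7% of the rest of the first 2 Mb. The median pileup was 20 reads in TERT, as in the rest of the first 2 Mb. The density in TERT was 1.52 times that of the rest of the first 2 Mb (95% interval 1.29 to 1.80). With each region counted once it was 1.24 times, with a 95% interval of 0.847 to 1.81 that includes 1. Both intervals cover counting error only and are no test, since neighbouring summits and regions of 1 list are not replicates.

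The stretches of equal length on both sides of TERT differed from it in opposite ways in the number of summits and the length covered. The 42 kb on the telomere side had more summits than TERT (196) and more of its length covered (83.8%), but no summit of 50 reads or more, and its highest pileup was 44 reads. The 42 kb on the centromere side had 106 summits and 48.5% of its length covered. Of those 106 summits 8 had 50 reads or more, in 2 regions, so summits of that height were not confined to TERT. TERT itself had 12 such summits (8.51% of 141, 4.94 to 14.3%), all in 3 regions and 7 of them in 1 region. This interval covers counting error only. The share was 4.24% in the first 2 Mb and 1.44% in the whole list.

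The start of TERT fell in a region from 1292976 to 1296471. It was 3496 bp wide and reached from 2.02 kb inside the gene to 1.47 kb before its start. Because the position of the start is known here only to the nearest kb, the region was required to extend at least 0.5 kb to each side of it. The pileups of its 21 summits ran from 16 to 48 reads around a median of 26. Of these summits 10 lay before the start. The highest, with a fold enrichment of 16.3, was thus far below the strongest summits inside the gene.

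Those stood in 3 regions within the gene. The region nearest to the start, from 1288791 to 1292661, had its top summit of 166 reads (fold 55.5) 4.66 kb inside the gene, then summits of 141 and 62 reads, and the median of its 11 summits was 20 reads. The region from 1282346 to 1285479 had its top summit of 149 reads 11.3 kb inside. It was high throughout, with 7 of 9 summits at 50 reads or more and a median of 106. The region from 1258978 to 1261012, 35.5 kb from the start, had 2 tall summits of 108 and 95 reads among 6, and its median was 18.5 reads.

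The rest of TERT was covered by lower signal. Of the 35 regions in the interval or within 10 kb of it, 32 had a highest pileup under 50 reads, from 10 to 48 with a median of 19.5, and 12 had a single summit. In 7 stretches of 6 kb from the start to the end of the gene, the numbers of summits were 21, 12, 27, 18, 16, 16 and 31. The share of each stretch inside listed regions was highest at the start, at 94.8%, and lowest from 24 to 30 kb, at 49.6% (49.55%). The stretch from 6 to 12 kb had the fewest summits but the highest median pileup, 96 reads. Before the start, beyond 4 further small regions, no region was listed from 1299852 to 1311478.

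**Figure D4:**
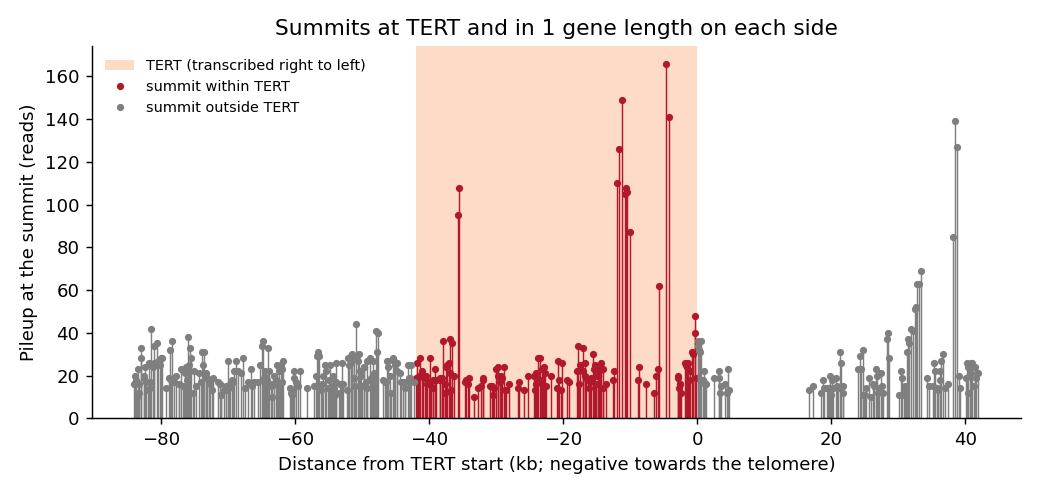
Pileup in reads of each summit (points and stems) against its distance from the TERT start in kb, negative towards the telomere, over TERT (shaded) and 1 gene length on each side. Within TERT the 3 tall groups reach 166, 149 and 108 reads, the telomere side stays at or under 44 reads, and summits on the centromere side reach 139 reads.

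Density differed widely among short-arm ends, and 18 of them were compared over their terminal 5 Mb. Summits per Mb ran from 8.8 in Xp to 1549 in 16p, against 124 in the whole list. By summits per Mb 5p ranked 4th at 955, after 16p (1549), 7p (1493) and 4p (1029). By the ratio to 5 to 15 Mb of the same chromosome, 5p ranked 2nd at 20.4, after 11p (20.8). It came 1st of the 18 in 3 further measures given here. The share of summits of 20 reads or more was 49.7% in 5p, against 37.8% in 7p, 33.9% in 16p and 33.4% in 4p. Its first 2 Mb held 93.2% of its summits, against 64.5% in 7p, 57.3% in 16p and 53.1% in 4p. The next highest shares were in ends with fewer summits, at 86.6% in 8p, 75.0% in 10p and 70.6% in 18p. The 2 Mb limit was set after the values of 5p were seen and then applied to the other ends. The 1st rank of 5p in this share is therefore partly built in. A region had 3.70 summits on average, against 3.12 in 7p, 3.12 in 16p and 2.82 in 4p. The share of 50 reads or more was 4.02% in 5p and from 0.311% to 0.630% in these 3 ends. Listed regions covered 43.4% of the first 2 Mb of 5p, between 46.0% in 7p and 41.8% in 16p.

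**Figure D5:**
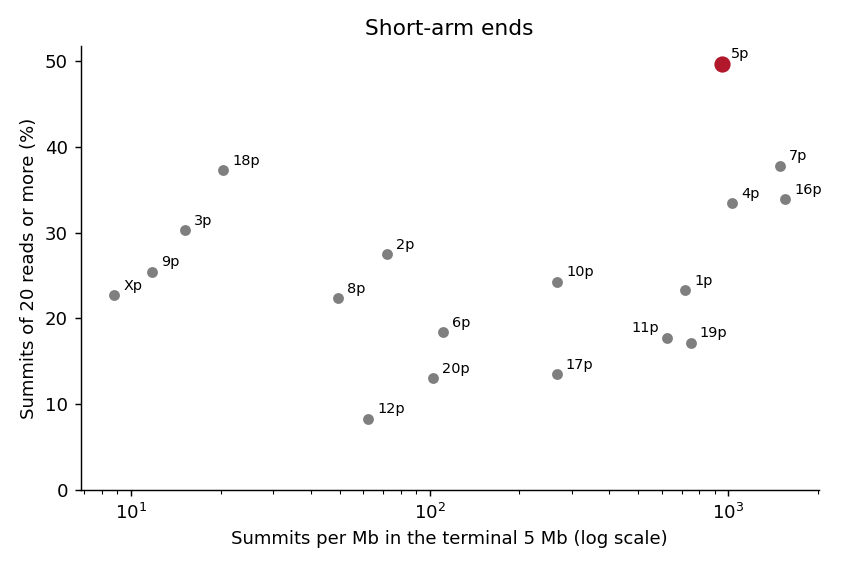
Share of summits of 20 reads or more (percent) against summits per Mb (log scale) in the terminal 5 Mb of 18 short arms, 1 point for each end, with 5p drawn larger. The point of 5p stands highest at 49.7%, and 7p, 16p and 4p lie to its right at 37.8%, 33.9% and 33.4%.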

How the data were processed

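ATAC-seq libraries were prepared from 75000 cells per sample, per the labels' protocols. The submitters' processing notes name Bowtie 1.1.2, MACS2 and the hg19 genome. Which MACS2 version and settings were used, how duplicates and replicates were handled and how many reads were sequenced is not given in the sources used here. In the 1 deposited list each line is a summit, and the fold enrichment is the ratio of reads to background there. The deposited p-value and q-value columns are −log10 values, and the deposited score is 10 times −log10 p.

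The pileup was solved from fold and p-value as a Poisson tail for 4774 of the 4777 lines. All gave 1 background of 2.01 reads, with which every fold gave a whole pileup within 0.01 reads. The solver recovered 100% of 500 lines tested on simulated data. Positions are counted from 1. The named windows and regions are the 5 densest windows, the 10 regions with the highest −log10 q, the 5 widest, the 5 with the most summits, those within 10 kb of TERT, the longest unlisted stretches and the windows with no or 1 summit. Other items were named after their values were seen. Members, lists and measures were chosen with earlier results of these data known. No differential test was made because no column belongs to a sample. Python 3.11.15, numpy 2.4.6, scipy 1.17.1, pandas 2.3.3 and matplotlib 3.10.9 were used.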

Additional observations from a re-analysis of the deposited data

How the results depend on the processing

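The ratio of summit density in the terminal 5 Mb of 5p to that from 5 to 15 Mb (20.4) was 7.36 when a region counted once, 7.25 with regions within 100 bp merged, 50.5 at 20 reads or more and 33.4 in the 50% of summits with the highest fold. Taking the terminal 3 Mb gave 33.1, the terminal 2 Mb 47.6 and a comparison with the rest of chromosome 5 gave 13.7. Against 5 to 10 Mb it was 20.2. The stretch from 2 to 5 Mb alone, added after the data were seen, gave 2.31 for this ratio and 16.05% for the share of summits of 20 reads or more (49.7%). That share was 39.6% over regions by their highest summits and 46.2% without the 5 regions with the most summits, and 18.4% of summits had 30 reads or more. The densest 10% of windows of 100 kb held 39.3% of the summits, which became 42.7% for 50 kb, 37.1% for 250 kb, 49.8% at 20 reads or more and 26.9% over regions. The median width (291 bp) was 832.5 bp for regions with a summit of 20 reads or more. The density in TERT was 3.59 times that of the rest of the terminal 5 Mb. It was 2.52 times over regions and 2.20 against the terminal 3 Mb. Against the first 2 Mb, added after the data were seen, it was 1.52, or 1.24 with each region counted once. All these ratios were above 1, but the 95% interval of the 1.24 ran from 0.847 to 1.81 and so included 1. That interval covers counting error only and is no test. What causes the shifts was not tested beyond each alternative's own construction. No paired analysis was possible because no column belongs to a sample, and for the same reason no replicate could be left out. Regions under 10 reads are not listed, so an unlisted stretch is not shown to be closed.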

Other observations

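Beyond the dense 2 Mb the signal thinned unevenly. The window from 2700001 to 2800000 had 41 summits in 17 regions, of which 34.1% had 20 reads or more, against 12 summits in the window before it and 20 in the window after it. The window from 2100001 to 2200000 held the tallest summit beyond 2 Mb, at 73 reads. Farther on, 5 windows of 100 kb had no summit and 1 had a single summit, all beyond 4000001. The longest stretches without a listed region ran from 4256156 to 4539162 (283 kb), from 3924678 to 4144356 (219.7 kb), from 4655912 to 4866412 (210.5 kb), from 2930767 to 3014504 (83.7 kb) and from 3786369 to 3865524 (79.2 kb). In the first 2 Mb the longest was 37.2 kb, from 12479 to 49700, directly after the first listed region of the chromosome, and the median unlisted stretch there was 333.5 bp, against 3.27 kb from 2 to 5 Mb.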
